A study of Bos taurus with 6 samples.

Results

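The route that runs from insulin receptor substrates through phosphatidylinositol 3-kinase (PI3K) to the kinases AKT and SGK1 and on to the FoxO transcription factors was followed through 9 of its genes in bovine vaginal epithelial cells (BVECs). They were taken by symbol: FOXO1, FOXO3, FOXO4, IRS2, PIK3CA, PIK3R1, AKT1, AKT2 and SGK1. Each symbol named 1 of the 18014 features of the deposited table, and all 9 genes were among the 13144 features tested. The primary BVECs came from vaginal tissue of healthy young cows and were grown to confluence. Treated cells (3 libraries) received the Lactobacillus strain SQ0048 as a suspension of 1000000000 CFU/ml that stayed on the monolayer for 4 h. Control cells (3 libraries) received medium without bacteria for the same time. The study describes 3 biological replicates a group. Whether these were separate cultures or cows is not said, so the p-values rest on sample-to-sample variation that could be technical.

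Growth factor and insulin receptors dock adaptor proteins such as IRS2, which recruit PI3K, a dimer of a catalytic subunit such as the PIK3CA product and a regulatory subunit such as the PIK3R1 product. The lipid that PI3K makes brings AKT to the membrane, where AKT is phosphorylated, and SGK1 is activated downstream of the same lipid. AKT and SGK1 phosphorylate FoxO proteins, which then leave the nucleus, whereas unphosphorylated FoxO proteins switch on genes of cell cycle arrest, cell death and metabolism. Most of this control acts on proteins, and only RNA was measured here.

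Of the 9 genes, 3 were lower in treated cells (SGK1, PIK3R1 and AKT2), 1 was higher (FOXO4) and 5 were not called. Values were compared as log2(FPKM + 0.1) with limma. FPKM counts fragments relative to exon length and to all mapped fragments, and a gene rose or fell where its adjusted p was under 0.05. Over all tested features 24.4% were called, 8.59% higher and 15.8% lower, and the median log2 fold change was -0.22 over the 9 genes and -0.08 over all tested features. Of all calls 64.7% were lower, against 77.7% in TPM, 54.5% after quantile normalization and 51.8% with size factors. The study set its thresholds on another test, edgeR. Applied to the limma fit (2-fold or more, unadjusted p under 0.05), they called 1 of the 9 genes, SGK1, as lower. They called 5.52% of all features, 2.24% higher and 3.28% lower. With edgeR the study itself reported fewer genes at these thresholds, and more of them higher than lower. The groups did not overlap in 5 of the 9 genes, 4 lower and 1 higher, beside 45.7% of all features, 28.3% lower and 17.4% higher. When any 1 library was left out, 2 or 3 of the 9 genes were called, and SGK1 and PIK3R1 were among them each time. In those fits 1662 to 2966 of all 13144 tested features were called, in place of 3201.

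**Figure D1:**
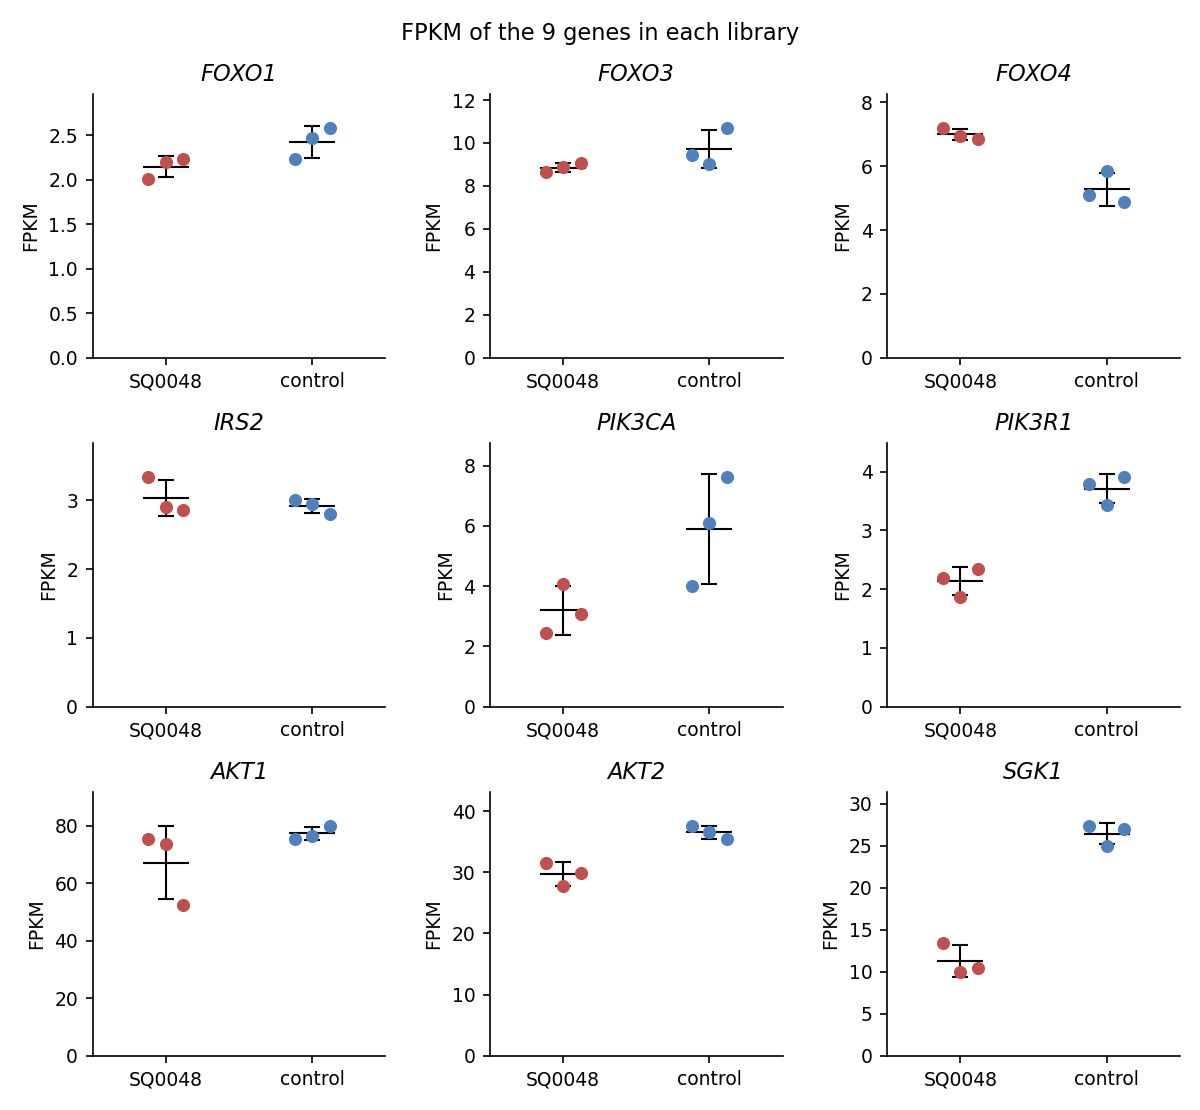
FPKM (y axes, from 0) of the 9 genes in the 3 treated (SQ0048) and 3 control libraries, each library a point, with the mean and SD in black. SGK1, PIK3R1, AKT2 and AKT1 lie lower in every treated library than in any control library, and FOXO4 lies higher. For AKT1, 1 treated library lies far under the rest, and the other treated libraries lie just under the lowest control library.

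IRS2, the adaptor that carries insulin and IGF signals and a known FoxO target in human and mouse cells, was at 3.34, 2.90 and 2.86 FPKM in treated cells and at 3.0, 2.94 and 2.80 FPKM in control cells. The groups overlapped, with treated replicate 1 above the rest. Its log2 fold change was 0.05 (95% interval -0.19 to 0.29, limma adjusted p = 0.724), and -0.02 without treated replicate 1.

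PIK3R1, whose product holds the catalytic subunit of PI3K in check and links it to receptors, was at 2.19, 1.87 and 2.35 FPKM in treated cells and at 3.79, 3.43 and 3.91 FPKM in control cells. The groups did not overlap. Its level was 42.4% lower on average, a log2 difference of -0.77 (standard error 0.12, 95% interval -1.07 to -0.48, limma adjusted p = 0.0096). The row holds 2 assembled transcripts, neither of them under an Ensembl identifier, so its length rests on the authors' assembly.

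PIK3CA, the catalytic subunit p110alpha, was at 2.46, 4.08 and 3.06 FPKM in treated cells and at 3.99, 6.09 and 7.62 FPKM in control cells. The highest treated library passed the lowest control library, and the spread was the widest of the 9 genes relative to the mean, 25.6% in treated and 30.9% in control cells. Its log2 difference of -0.84 exceeded that of PIK3R1 in size but was not called (95% interval -1.56 to -0.12, unadjusted p = 0.0287, limma adjusted p = 0.088). The log2 ratio of PIK3CA to PIK3R1 was 0.56 ± 0.50 in treated and 0.62 ± 0.48 in control cells (SD, n = 3 each, p = 1.0, exact permutation test, two-sided). Its difference took either sign as libraries were left out, -0.35 to 0.13.

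AKT1 was the most abundant of the 9 genes in both groups. It was at 75.30, 73.66 and 52.44 FPKM in treated cells and at 75.49, 76.56 and 79.91 FPKM in control cells. Treated replicate 3 was far under the others, while the remaining treated libraries lay just under the lowest control library. The log2 fold change was -0.22 (95% interval -0.59 to 0.15, limma adjusted p = 0.328), and -0.05 without that library (limma adjusted p = 0.543).

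AKT2, the paralog most tied to insulin-driven glucose uptake, was at 31.50, 27.69 and 29.96 FPKM in treated cells and at 37.58, 36.55 and 35.52 FPKM in control cells. It fell by 0.30 on the log2 scale (standard error 0.07, 95% interval -0.46 to -0.14, limma adjusted p = 0.0258). The call was lost with median-of-ratios size factors (log2 fold change -0.22, limma adjusted p = 0.0790). It was also lost without treated replicate 3 or control replicate 1, 2 or 3 (limma adjusted p = 0.0703, 0.0827, 0.0670 and 0.0572). AKT1 made up 68.9% ± 4.72 of the summed FPKM of both kinases in treated and 67.9% ± 1.24 in control cells (SD, n = 3 each, p = 0.8, exact permutation test, two-sided).

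SGK1, the serum- and glucocorticoid-regulated kinase whose mRNA is known to turn over fast, fell most. It stood at 13.42, 10.00 and 10.41 FPKM in treated cells and at 27.38, 25.00 and 27.01 FPKM in control cells. Every treated library was well under the lowest control library. The means were 11.3 ± 1.87 and 26.5 ± 1.28 FPKM (SD, n = 3 each), a log2 difference of -1.23 (standard error 0.12, 95% interval -1.54 to -0.93, limma adjusted p = 0.0037). Of all tested features, 3.36% had a lower log2 fold change. The call stood under each of 14 alternatives in scaling, pseudocount, filter, variance model and leaving out a library, with log2 fold changes of -1.37 to -1.15.

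FOXO4 was the 1 gene of the 9 that rose. It was at 7.20, 6.95 and 6.86 FPKM in treated cells and at 5.11, 5.86 and 4.87 FPKM in control cells, with no overlap. Its log2 fold change was 0.40 (standard error 0.09, 95% interval 0.18 to 0.63, limma adjusted p = 0.0265), and 14.1% of all tested features had a higher one. The call was lost without treated replicate 1, 2 or 3 or control replicate 1 or 3 (limma adjusted p = 0.0885, 0.0586, 0.0731, 0.0829 and 0.0726), with log2 fold changes of 0.35 to 0.48 over all such fits.

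FOXO3 and FOXO1 were not called. FOXO3, the FoxO factor with the highest FPKM in these cells, was at 8.63, 8.88 and 9.06 FPKM in treated cells and at 9.45, 9.02 and 10.70 FPKM in control cells. Its highest treated library just passed the lowest control library (log2 fold change -0.13, 95% interval -0.33 to 0.07, limma adjusted p = 0.305). FOXO1, the FoxO factor of hepatic glucose output in mice, was at 2.01, 2.20 and 2.23 FPKM in treated cells and at 2.23, 2.47 and 2.58 FPKM in control cells. The groups met at 2.23 FPKM (log2 fold change -0.17, 95% interval -0.43 to 0.09, limma adjusted p = 0.297). Each of these rows holds 1 assembled transcript without an Ensembl identifier. FOXO6, a FoxO factor best known from brain, was under the filter, at 0.31, 0.15 and 0.11 FPKM in treated and 0.22, 0.27 and 0.31 FPKM in control cells.

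**Figure D2:**
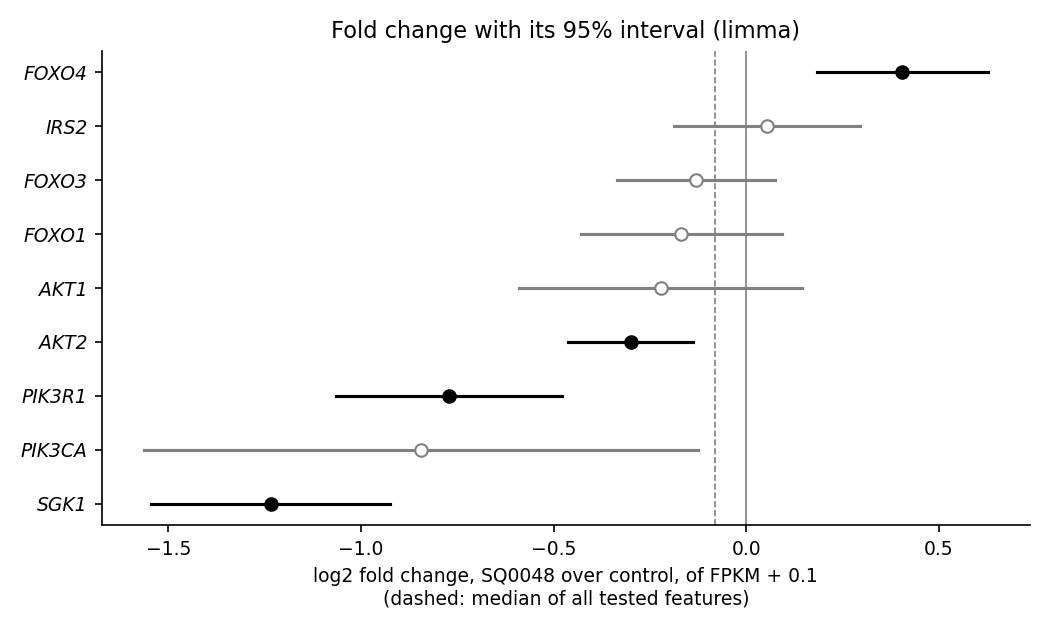
For the 9 genes, the log2 fold change of treated (SQ0048) over control cells (x axis, of FPKM + 0.1), with its 95% interval from limma, filled where the adjusted p was under 0.05. The interval of FOXO4 lies above 0 and those of SGK1, PIK3R1, PIK3CA and AKT2 lie under 0, although PIK3CA was not called after adjustment, and the dashed line is the median of all tested features at -0.08.

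The FOXO4 share of the summed FoxO FPKM was higher in each treated library than in any control library. Shares within a library do not depend on how libraries are scaled. Their size does rest on the assembled length of each row, and those of FOXO1 and FOXO3 hold no Ensembl transcript. FOXO4 made up 40.4, 38.5 and 37.8% of the summed FPKM of FOXO1, FOXO3 and FOXO4 in treated cells and 30.4, 33.8 and 26.8% in control cells. FOXO3 made up 48.4, 49.3 and 49.9% in treated and 56.3, 52.0 and 59.0% in control cells, and FOXO1 11.3, 12.2 and 12.3% in treated and 13.3, 14.2 and 14.2% in control cells. None of these shares overlapped between the groups. The sum itself was 18.0 ± 0.156 FPKM in treated and 17.4 ± 0.684 FPKM in control cells (SD, n = 3 each, p = 0.4, exact permutation test, two-sided). The exact permutation test gave p = 0.1 for each of the 3 shares, the smallest that 3 libraries against 3 allow, and 0.175 after adjustment over the 7 sums, shares and ratios compared. With a share that sums to 100%, a rise of 1 factor lowers the others, so these are not separate results.

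**Figure D3:**
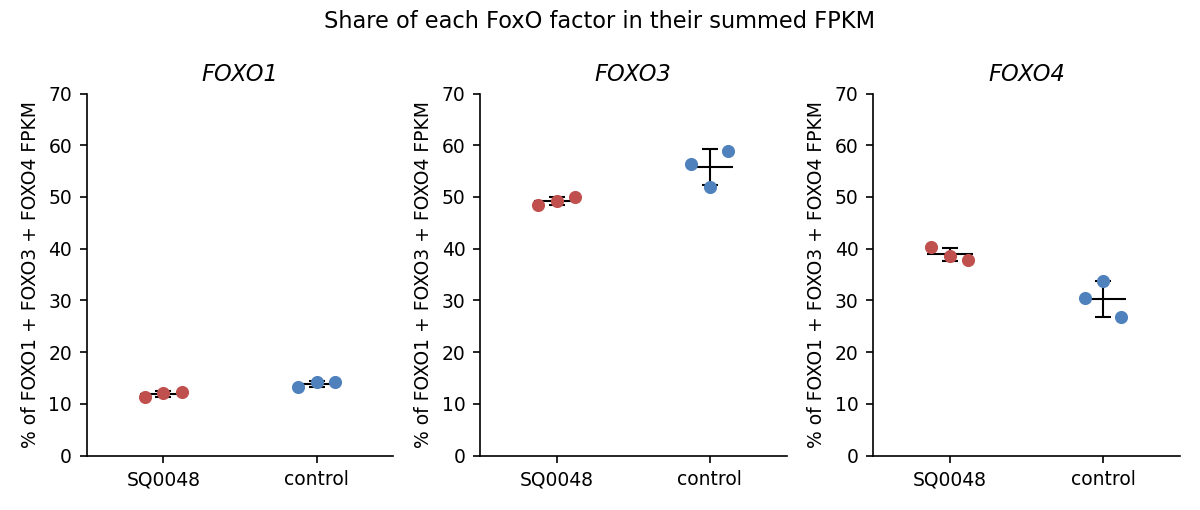
Share (y axes, in % from 0) of FOXO1, FOXO3 and FOXO4 in their summed FPKM in the 3 treated (SQ0048) and 3 control libraries, each library a point, with the mean and SD in black. The FOXO4 share is 38.9% on average in treated and 30.3% in control cells, and that of FOXO3 is 49.2 and 55.7%.

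In order of level, treated cells held AKT1, AKT2, SGK1, FOXO3, FOXO4, PIK3CA, IRS2, FOXO1 and PIK3R1, at 67.1 down to 2.14 FPKM on average. The libraries of PIK3CA and IRS2 overlapped there, as did those of FOXO1 and PIK3R1, while all other neighbours in that order stood apart. In control cells the order was AKT1, AKT2, SGK1, FOXO3, PIK3CA, FOXO4, PIK3R1, IRS2 and FOXO1, at 77.3 down to 2.43 FPKM. Only PIK3CA and FOXO4 overlapped among neighbours in that group. SGK1 thus stood clear of FOXO3 in both groups, at 11.3 against 8.86 FPKM in treated and 26.5 against 9.72 FPKM in control cells.

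For each called gene, the 3 genes with the nearest profile over the 6 libraries were taken among 5922 named genes averaging 5 FPKM or more, by the distance between log2 values centred on their own mean. Nearest to SGK1 were PHF19, a Polycomb-associated protein, DLC1, a GTPase-activating protein, and HIVEP2, a zinc finger factor, at distances of 0.27, 0.33 and 0.34. Nearest to PIK3R1 were the mitotic kinase PLK1, the elongation factor AFF4 and the transcription factor ATF2, at distances of 0.12 to 0.16. AKT2 was nearest to FKBP15, UPF1 and DNAJB12, at 0.07 to 0.08, and FOXO4 to the lysosomal protease CTSF, the small nucleolar RNA SNORA17 and the ATP synthase gene ATP5G1, at 0.08 to 0.09. A distance is small where both genes change little, so the distances do not rank the 4 genes by likeness.

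Other genes of the route were taken from 10 lists, which with the 9 genes hold 192 symbols. Their counts stand beside 24.4% of all tested features called, 8.59% higher and 15.8% lower. Among receptors and adaptors, 4 of 11 tested genes fell and 1 rose, and the median log2 difference was -0.10. The insulin receptor INSR was at 5.16, 5.47 and 5.39 FPKM in treated cells and at 7.58, 7.41 and 8.44 FPKM in control cells. It fell by 0.54 and the IGF receptor IGF1R by 0.49 on the log2 scale (limma adjusted p = 0.0083 and 0.0077). The docking protein GAB1 fell by 0.90, to 3.16 FPKM in treated against 6.0 FPKM in control cells on average (limma adjusted p = 0.0046), while the adaptor GRB2 rose by 0.29 (limma adjusted p = 0.0107). SOS1, the Ras exchange factor bound by GRB2, fell by 0.65, but that call was lost after quantile normalization (limma adjusted p = 0.0633) and without any 1 library other than control replicate 2 (limma adjusted p = 0.0712 to 0.0997). IRS1, the paralog of IRS2, differed by -0.03 on the log2 scale (limma adjusted p = 0.94).

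Of 7 other tested PI3K subunits and partners 3 fell, 0 rose and 4 were not called. PIK3C3, the class III enzyme of autophagy and endosomes, was at 7.00, 7.49 and 6.50 FPKM in treated cells and at 10.38, 9.41 and 9.90 FPKM in control cells (log2 ratio -0.50, limma adjusted p = 0.0112). PIK3CB, the catalytic subunit p110beta, was at 4.37, 5.06 and 4.14 FPKM in treated cells and at 7.97, 6.33 and 8.33 FPKM in control cells (log2 ratio -0.72, limma adjusted p = 0.0174). The call of PIK3CB was lost without treated replicate 1 or 3 or control replicate 1 or 3 (limma adjusted p = 0.0571 to 0.0637). PIK3R4, the scaffold of PIK3C3, fell by 0.26, a call lost without any 1 library other than treated replicate 2 (limma adjusted p = 0.0527 to 0.102), with quantile normalization, with size factors and without a variance trend. PIK3R2 and PIK3R3, the other class IA regulatory subunits, were not analysed here.

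Lipid phosphatases, which undo the product of PI3K, were lower in 3 of 11 and higher in 1, with a median of -0.26. INPPL1 (SHIP2) rose by 0.25 and INPP4A and MTMR3 fell by 0.50 and 0.37 on the log2 scale, and each of these 3 calls was lost without any 1 control library. INPPL1 was also lost without treated replicate 1 or 3, in TPM and without a variance trend (limma adjusted p = 0.0729 to 0.105 over the libraries). INPP4A and MTMR3 were lost without treated replicate 2 or 3 (limma adjusted p = 0.0660 to 0.0904 and 0.0824 to 0.103 over the libraries) and after quantile normalization, INPP4A also without the filter and MTMR3 with size factors.

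**Figure D4:**
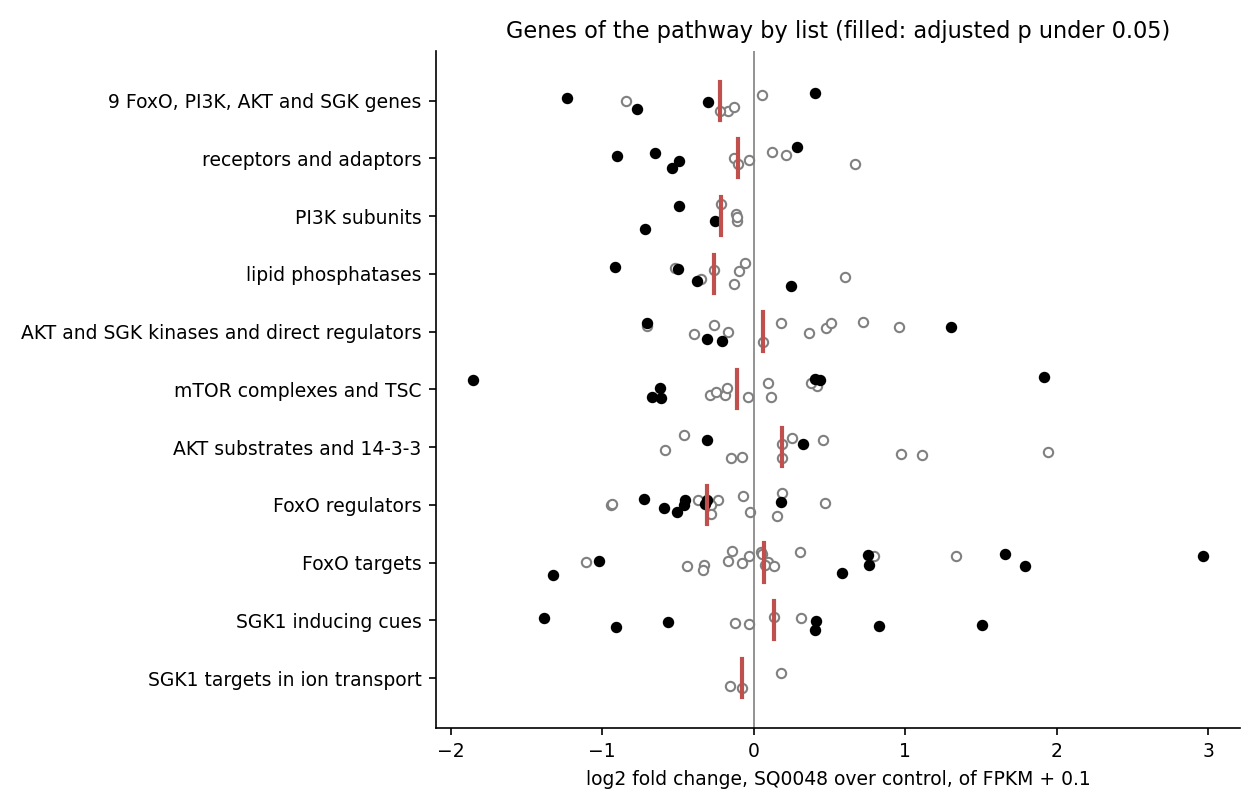
Log2 fold change of treated (SQ0048) over control cells (x axis, of FPKM + 0.1) for each tested gene of the 9 genes and of 10 pathway lists (rows), filled where the adjusted p was under 0.05, with the median of each list as a red bar. The medians run between -0.31 for FoxO regulators and 0.19 for AKT substrates, and filled points lie on both sides of 0 in 9 of the 11 rows.

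Around AKT and SGK1, the clearest change was that of NDRG1, with the lowest adjusted p of the list. NDRG1, a substrate of SGK1 and a gene known to rise under hypoxia and metal stress in human cells, was at 70.38, 68.89 and 73.47 FPKM in treated cells and at 28.33, 28.42 and 29.45 FPKM in control cells (log2 ratio 1.3, standard error 0.05, limma adjusted p = 2.9e-04). NEDD4L, the ubiquitin ligase that SGK1 inhibits, was at 26.97, 26.45 and 26.35 FPKM in treated cells and at 31.12, 30.99 and 30.34 FPKM in control cells. Its log2 difference of -0.21 was called (limma adjusted p = 0.0248), but not with size factors (limma adjusted p = 0.104), without a variance trend or without any 1 library other than treated replicate 2 (0.0513 to 0.0811, limma adjusted p). PHLPP2, a phosphatase of AKT, fell by 0.70 (limma adjusted p = 0.0061) and its paralog PHLPP1 by 0.31, a call lost without any 1 of the 6 libraries (limma adjusted p = 0.0857 to 0.106), without the filter, after quantile normalization and with size factors. PDPK1, the kinase that activates both AKT and SGK1, was not called (log2 fold change -0.71, limma adjusted p = 0.41). In all, 3 of the 15 tested genes of this list fell and 1 rose. SGK2 and SGK3 were not analysed here. Of 3 tested channels and pumps that SGK1 regulates, none was called by limma, and ATP1B1, a sodium pump subunit, differed by -0.16 on the log2 scale (limma adjusted p = 0.273).

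Genes of the mTOR complexes split, with 3 of 16 higher and 4 lower. DDIT4, a stress-induced inhibitor of mTORC1, was at 48.26, 41.09 and 41.68 FPKM in treated cells and at 12.45, 9.34 and 12.95 FPKM in control cells (log2 ratio 1.92, limma adjusted p = 0.0019). RICTOR, the mTORC2 subunit needed to phosphorylate AKT and SGK1, was at 0.80, 0.82 and 0.61 FPKM in treated cells and at 2.96, 2.30 and 3.69 FPKM in control cells. No library overlapped for either gene. For RICTOR the log2 difference was -1.86 (limma adjusted p = 0.0054), and -1.18 with a pseudocount of 1, since its level is low. The translation repressors EIF4EBP1 and EIF4EBP2 moved apart, by 0.43 and -0.61 (limma adjusted p = 0.0085 and 0.0070), and so did the S6 kinases RPS6KB2 and RPS6KB1, by 0.40 and -0.62 (limma adjusted p = 0.0148 and 0.0112). The call of RPS6KB2 was lost without treated replicate 1 or control replicate 1 (limma adjusted p = 0.0514 and 0.0509). TSC1, the brake on RHEB, fell by 0.67, a call lost without treated replicate 1 or 3 or control replicate 1 or 3 (limma adjusted p = 0.0553 to 0.0648).

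Among AKT substrates and the 14-3-3 proteins that hold phosphorylated FoxO in the cytoplasm, 1 of 13 tested genes rose and 1 fell. These were BAD, a proapoptotic AKT substrate, and PFKFB2, a regulator of glycolysis, with log2 fold changes of 0.32 and -0.31. Both calls were lost without any 1 control library or treated replicate 3, BAD also without treated replicate 2 and PFKFB2 without treated replicate 1, BAD in TPM and without a trend and PFKFB2 after quantile normalization (over the libraries, limma adjusted p = 0.0622 to 0.107 and 0.0573 to 0.0697). None of the 6 tested 14-3-3 genes of the YWHA family was called, which does not mean that all were steady. YWHAG ran from 0.34 to 13.85 FPKM in treated and from 0.03 to 8.54 FPKM in control cells. YWHAH ran from 3.31 to 34.83 FPKM in treated and from 0.98 to 31.8 FPKM in control cells. In the same family YWHAZ and YWHAE, 14-3-3 zeta and epsilon, stood at 128 and 138 FPKM in treated and 135 and 153 FPKM in control cells on average.

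Among proteins that modify or bind FoxO factors, 7 of 19 tested genes fell and 1 rose, and the list had the lowest median at -0.31. EP300, an acetyltransferase and coactivator, was at 7.03, 6.92 and 7.4 FPKM in treated cells and at 11.58, 11.86 and 11.94 FPKM in control cells (log2 ratio -0.72, limma adjusted p = 0.0025). Another, smaller feature of EP300 was at 0 in 4 libraries. IKBKB, the IkB kinase that marks FOXO3 for degradation in human cells, fell by 0.46 (limma adjusted p = 0.0085). USP7, a deubiquitinase of FOXO4, and STK3, an MST kinase, fell by 0.31 and 0.59. The call of USP7 was lost without treated replicate 3 or control replicate 3 (limma adjusted p = 0.0559 and 0.0512), and that of STK3 without treated replicate 1 or 3 or control replicate 2 or 3 (limma adjusted p = 0.0538 to 0.0665). PRMT1, an arginine methyltransferase, was the higher gene, by 0.18, but not in TPM, without the filter, without a trend, after quantile normalization (log2 fold change 0.06, limma adjusted p = 0.450) or without any 1 library other than treated replicate 2 (0.0829 to 0.131, limma adjusted p). With any 1 library left out, 2 to 7 genes of the list were called, beside 1662 to 2966 of all 13144 tested features.

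Genes known as direct FoxO targets in human or mouse cells moved both ways, 6 of 24 tested higher and 2 lower, with a median of 0.07. BCL2L11, which encodes the death-promoting protein BIM, was at 17.54, 18.41 and 17.63 FPKM in treated cells and at 5.31, 5.01 and 4.98 FPKM in control cells (log2 ratio 1.79, standard error 0.06, limma adjusted p = 1.8e-04). BCL6, a transcriptional repressor, rose by 0.76, MXI1, an antagonist of MYC, by 1.66 and PLK2, a stress-responsive kinase, by 0.76 (limma adjusted p = 0.0032, 0.0090 and 0.0098). CDKN1A, the cell cycle inhibitor p21, was at 64.52, 254.07 and 65.65 FPKM in treated cells and at 12.81, 11.93 and 14.45 FPKM in control cells. Treated replicate 2 was far above the others, and without it the log2 fold change was 2.31 in place of 2.97 (limma adjusted p = 0.0032 and 0.0164). Without control replicate 1, 2 or 3 the adjusted p of CDKN1A was 0.0549, 0.0510 and 0.0534 (limma). The lower genes were CCND1, cyclin D1, at 17.04, 17.04 and 15.54 FPKM in treated cells and at 39.14, 44.08 and 41.75 FPKM in control cells, and FBXO32, the ubiquitin ligase atrogin-1, at 4.60, 4.18 and 3.84 FPKM against 7.79, 8.36 and 9.85 FPKM (log2 fold changes of -1.33 and -1.02, limma adjusted p = 8.3e-04 and 0.0052). CCND1 is known to be repressed and FBXO32 to be activated by FoxO factors.

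**Figure D5:**
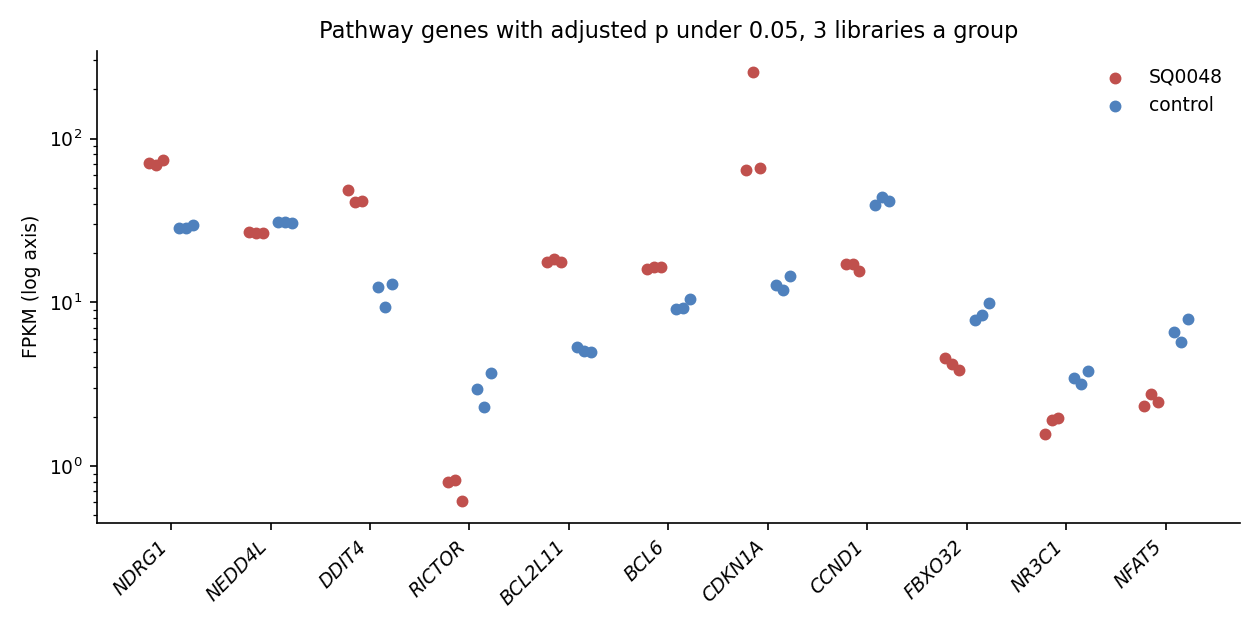
FPKM (y axis, log scale) of 11 called genes of the pathway lists in the 3 treated (SQ0048, red) and 3 control (blue) libraries, each library a point. NDRG1, DDIT4, BCL2L11, BCL6 and CDKN1A lie higher in each treated library, with CDKN1A at 254 FPKM in 1 of them, and NEDD4L, RICTOR, CCND1, FBXO32, NR3C1 and NFAT5 lie lower.

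Cues known to induce SGK1 include glucocorticoids and hypertonic stress, and other cues were not listed. Of the genes tied to these cues, with the receptor NR3C1 and the factor NFAT5 among them, 4 of 11 tested were higher and 3 lower. The called fall on the glucocorticoid side was that of the receptor. NR3C1, the glucocorticoid receptor, was at 1.56, 1.90 and 1.96 FPKM in treated cells and at 3.46, 3.18 and 3.78 FPKM in control cells (log2 ratio -0.91, limma adjusted p = 0.0080). PER1 and DUSP1, which glucocorticoids and other stimuli induce, rose by 0.82 and 1.51 (limma adjusted p = 0.0077 and 0.0092). TSC22D3, the glucocorticoid-induced leucine zipper gene, rose by 0.41, a call lost after rescaling to TPM (limma adjusted p = 0.0717) and without any 1 library other than control replicate 3 (0.0573 to 0.0742, limma adjusted p), and FKBP5 differed by -0.03 on the log2 scale (limma adjusted p = 0.77). NFAT5, the factor of hypertonic stress, was at 2.34, 2.74 and 2.45 FPKM in treated cells and at 6.62, 5.72 and 7.92 FPKM in control cells (log2 ratio -1.38, limma adjusted p = 0.0038). SLC38A2, an amino acid transporter induced by hypertonic stress, fell by 0.56 (limma adjusted p = 0.0072). SLC6A6, the taurine transporter, rose by 0.41, which was not called in TPM, without the filter, without a trend or without any 1 library other than treated replicate 2 (0.0964 to 0.127, limma adjusted p).

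The deposited table annotates 99 features to the KEGG FoxO signaling pathway and 235 to the PI3K-Akt signaling pathway, 38 of them to both. Of the 9 genes, 5 carry the first annotation and 3 the second. The rows of FOXO1, FOXO3, PIK3R1 and AKT1 carry no KEGG entry, and some other rows carry the first annotation without the second. The study drew both pathways from these libraries, so their counts are no independent evidence. In the FoxO pathway 13 of 88 tested features rose and 24 fell, 42.0% in all, with a median of -0.13. In the PI3K-Akt pathway 22 of 172 rose and 38 fell, 34.9% in all, with a median of -0.04. Over all tested features 24.4% were called, 8.59% higher and 15.8% lower, with a median of -0.08. The largest rises in the FoxO pathway beside CDKN1A and BCL2L11 were those of GADD45G, GADD45B and PLK3, stress-induced genes of growth arrest. PLK3 was at 31.41, 28.61 and 29.63 FPKM in treated cells and at 11.74, 10.93 and 10.01 FPKM in control cells (log2 ratio 1.45, limma adjusted p = 8.4e-04). GADD45G rose by 3.60, and by 2.18 with a pseudocount of 1, as control cells held 0.22 to 0.38 FPKM. GADD45B rose by 1.78, a call lost without treated replicate 1, 2 or 3 (limma adjusted p = 0.0850, 0.0564 and 0.0789). The largest falls beside CCND1 and SGK1 were those of TGFBR1, a receptor kinase of TGF-beta, PLK4, the kinase of centriole duplication, and ATM, the kinase of DNA breaks. They had log2 fold changes of -1.51, -1.25 and -1.26 (limma adjusted p = 0.0107, 0.0023 and 0.0155), and that of ATM, under 2 FPKM in each library, was -0.61 with a pseudocount of 1 and was not called without treated replicate 1 (limma adjusted p = 0.0502). In the PI3K-Akt pathway the receptor kinase MET fell by 0.97 and the interferon receptor IFNAR1 by 1.29 (limma adjusted p = 0.0066 and 0.0025). IL6, a cytokine, fell by 1.19, but its call was lost without any 1 library other than control replicate 3 (0.0806 to 0.113, limma adjusted p), without the filter, without a trend, after quantile normalization and with size factors. NR4A1, an orphan nuclear receptor, rose by 1.79 (limma adjusted p = 0.0023), and LPAR2, a lysophosphatidic acid receptor, by 1.02, lost without any 1 treated library or control replicate 1 (0.0512 to 0.0771, limma adjusted p).

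FPKM summed to 372034 to 378772 in treated and 343933 to 361055 in control libraries. The paper gives read numbers only as a mean per group, lower for treated cells, so the depth of each library is unknown. Epithelial markers were abundant, the 10 of them summing to 5937 to 6223 FPKM in treated and 5017 to 5447 FPKM in control libraries, with 2 higher and 1 lower. The 8 fibroblast markers summed to 58.5 to 60.5 FPKM in treated and 59.1 to 63.9 FPKM in control libraries, with 3 of 6 tested higher and 1 lower. Endothelial markers (2 of 4 found) summed to 2.40 to 2.49 FPKM in treated and 1.52 to 1.57 FPKM in control libraries. Nearly all of this sum was VWF, the 1 tested gene of that list, which was called higher (log2 fold change 0.64, limma adjusted p = 0.0089). Immune markers (4 of 5 found) summed to 2.09 to 2.59 FPKM in treated and 2.19 to 2.49 FPKM in control libraries, and neither of the 2 tested was called. Smooth muscle markers (3 of 4 found) summed to 0.09 to 0.31 and 0.10 to 0.18 FPKM, and none was tested. PECAM1, LYZ, DES and MYH11 were under 0.1 FPKM in each library. The part of these levels in the results above was not tested. In bulk RNA, fewer cells that express a gene and less RNA per cell cannot be told apart.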

How the data were processed

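The 9 genes, the lists and the tests were chosen with earlier results of these data known. Poly(A) RNA was sequenced, and the authors deposited FPKM with 2 decimals. Their paper names Cutadapt, Hisat 2.0, Cufflinks and edgeR, while StringTie 1.3.0, HISAT2 2.0, Bowtie 0.12.2 and, as build, ARS-UCD1.2 stand in the submitters' processing notes. How strand was used in counting is not stated, so reads of antisense neighbours may be included. FPKM per gene rests on the transcripts assembled. Counts cannot be recovered, so no counting interval is given, and 0 columns of values were left unused. An exact 0 may be a failed estimate.

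Samples were grouped by their treatment label. Features whose mean reached 0.5 FPKM were tested as log2(FPKM + 0.1) in R 4.3.3 with limma 3.58.1 (lmFit, eBayes with a trend), with condition as the only term, two-sided, with Benjamini-Hochberg adjustment over all 13144 features. The fold change of low genes is understated by the pseudocount. The highest row by mean FPKM stood for a symbol. Shares and ratios were compared by exact permutation in scipy 1.17.1. The limma fit was also run on simulated data with independent normal noise on log2 values. That run does not cover outlying libraries or technical replicates. Figures used matplotlib 3.10.9. All 9 genes are named. Of each list, up to 4 called genes a direction with the lowest adjusted p are named, or the 2 most abundant where none was called. Of each KEGG pathway, the 5 highest and 5 lowest called genes are named. FOXO6, IRS1, PDPK1, FKBP5, YWHAZ, YWHAE, YWHAG, YWHAH and CDKN1A as a FoxO target were named after their values were seen. Replicate numbers were not taken as pairs. Alternatives were a pseudocount of 1 or of 0.01, testing every feature or those averaging 5 FPKM or more, TPM, median-of-ratios size factors, quantile normalization, no trend, a replicate block, the thresholds of the study, summed features of a symbol and leaving out each library. Promoter and protein sequences were not analysed here. Some genes that the rule names are not reported here.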

Additional observations from a re-analysis of the deposited data

How the results depend on the processing

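SGK1 and PIK3R1 kept their direction and their call at the adjusted p threshold under every alternative in which they were tested, the block included, with log2 fold changes of -1.37 to -1.15 and -0.88 to -0.59, and FOXO1, FOXO3, AKT1 and PIK3CA stayed uncalled wherever tested. FOXO1, PIK3CA, PIK3R1 and IRS2 average under 5 FPKM and were not tested with the filter at 5 FPKM. Read depth is given only as a mean per group, so counting error could not be separated from the spread of libraries. Replicate numbers did not pair the samples (correlations of deviations from group means of -0.01, 0.001 and 0.01 for numbers 1, 2 and 3). With a replicate block, which uses up residual degrees of freedom, 847 features were called in place of 3201, and 2 of the 9 genes. FOXO4 (log2 fold change 0.40, limma adjusted p = 0.0832) and AKT2 (-0.30, adjusted p = 0.0756) were not called in that block fit, which called 1 receptor or adaptor, 0 PI3K subunits, 1 lipid phosphatase, 1 AKT or SGK regulator, 3 mTOR genes, 0 AKT substrates, 3 FoxO regulators, 5 FoxO targets, 4 genes of SGK1 cues, 18 features of the KEGG FoxO and 20 of the PI3K-Akt pathway. In pairs of equal number, exact sign flips gave p = 0.25 for each of the 3 FoxO shares, the smallest 3 pairs allow, and p = 1.0 for the AKT1 share and for the ratio of PIK3CA to PIK3R1.

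By fold change of at least 2 and unadjusted p under 0.05, 726 features and 1 of the 9 genes were called. Of the called features 64.7% were lower, against 77.7% after rescaling to TPM, 54.5% after quantile normalization and 51.8% with size factors. With size factors AKT2 was at -0.22 and 2 AKT or SGK regulators were called. After quantile normalization 2 lipid phosphatases were called, and without a trend 1 AKT substrate. At a mean of at least 5 FPKM, where fewer genes are tested, 3 receptors and adaptors, 2 AKT or SGK regulators, 4 mTOR genes and 4 genes of SGK1 cues were called. IRS2, not called wherever tested, turned to a log2 ratio of -0.0345 in TPM and of -0.0155 without treated replicate 1.

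Leaving out 1 library at a time, 1662 to 2966 features and 2 to 3 of the 9 genes were called, with 4 to 5 receptors and adaptors, 1 to 3 PI3K subunits, 1 to 3 lipid phosphatases, 2 to 3 AKT or SGK regulators, 5 to 8 mTOR genes, 0 to 1 AKT substrates, 2 to 7 FoxO regulators, 6 to 8 FoxO targets, 5 to 6 genes of SGK1 cues, 23 to 33 FoxO and 37 to 56 PI3K-Akt pathway features. Log2 fold changes were 0.35 to 0.48 for FOXO4, -0.34 to -0.25 for AKT2 and -0.0155 to 0.0929 for IRS2, the difference in AKT1 share -0.820 to 3.70 percentage points, and that in the log2 ratio of PIK3CA to PIK3R1 -0.35 to 0.13. The cause was not tested. Of 55 other called genes that the naming rule takes, 33 kept their call in every alternative without the block in which they were tested.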
